A study of Mus musculus with 8 samples.

Results

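A set of 483 regions of mouse chromatin carried a peak of H3K27ac, acetylation of histone H3 at lysine 27, in control cells, in cells given EGF without siRNA against Arid1a and in cells given that siRNA without EGF, but had no peak where both were combined. They were chosen by peak presence. All peaks of the 8 libraries that shared at least 1 bp were merged to 33920 regions, and the 483 (1.42% of them) had a peak in at least 1 ctrl library, at least 1 siArid1a library and both EGF libraries, and in neither siArid1aplusEGF library. Since the choice used all 8 libraries, the pattern itself is no finding, and the values that follow from it are descriptions. The peaks that made up the set were weak ones, with a median score between percentiles 14.6 and 31.4 of their lists. When only peaks above the pooled median score were counted, 0 of the 483 regions met the rule.

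The cells were 266-6, a mouse pancreatic acinar line derived from a tumour of a transgenic animal, so all groups share 1 transformed line. All were transfected with 25 nM siRNA for 48 h and starved of serum overnight before treatment. The ctrl group had non-targeting siRNA and 8 h of 0.1% BSA vehicle, the EGF group non-targeting siRNA and 40 ng/ml EGF for 8 h, the siArid1a group ARID1A siRNAs and vehicle, and the siArid1aplusEGF group ARID1A siRNAs and EGF. There were 2 libraries a group, each deposited as its own peak list with positions in build mm9. The labels do not say whether the 2 came from separate cultures. Any p-value below is thus set against a spread that may be technical only. The lists held 22030 to 28281 peaks. The EGF lists, with 22361 and 23080 peaks, and the siArid1aplusEGF lists, with 22030 and 23256, were of like length. Both siArid1a lists were longer, with 26844 and 27558 peaks. They covered 46.3 and 48.7 Mb, against 34.2 and 36.8 Mb in the siArid1aplusEGF lists. Ctrl replicate 1 (22167) was shorter than ctrl replicate 2 (28281). Read depth is unknown, so no counting interval is given. The level of Arid1a, acinar marker genes and the genes near each region were not analysed here. The labels write the siRNA target as ARID1A, the form of the human symbol, and whether these siRNAs lowered the mouse transcript was not checked. Knockdown below therefore means only treatment with them.

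H3K27ac is laid down by the acetyltransferases p300 and CBP at active promoters and enhancers. Arid1a is the large DNA-binding subunit of the BAF form of the SWI/SNF remodelling complex, which slides and evicts nucleosomes and is needed for full activity of many enhancers. EGF binds the EGF receptor and signals through the ERK cascade to ETS and AP-1 transcription factors, which bind enhancers and recruit both acetyltransferases and BAF. In the acinar pancreas this cascade is known for its part in acinar-to-ductal metaplasia, and Arid1a for restraining tumour formation.

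Few of the regions open to this pattern followed it. A peak in at least 1 ctrl library, at least 1 siArid1a library and both EGF libraries was found in 18849 regions. Of these, 17537 (93.0%) also had a peak in both siArid1aplusEGF libraries, 829 (4.40%) in 1 of them, and 483 (2.56%) in neither. With the roles of the treated groups exchanged, 484 regions had a peak in both siArid1aplusEGF libraries and in neither EGF library on the same baseline. The numbers missing from one EGF-treated group and from the other were thus alike.

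Presence in the other 3 groups was complete for 50.1% of the set. All 6 libraries of the ctrl, EGF and siArid1a groups held a peak in 242 regions, 5 of them did in 166 (34.4%) and 4 in 75 (15.5%). The control peak was present in both ctrl libraries in 317 regions (65.6%), in ctrl replicate 2 alone in 159 (32.9%) and in ctrl replicate 1 alone in 7 (1.45%). Ctrl replicate 2 held a peak in 476 of the 483 regions and ctrl replicate 1 in 324, against 403 and 413 for siArid1a replicates 1 and 2. Over all 33920 regions the same libraries held a peak in 80.7%, 61.7%, 76.8% and 79.3%.

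**Figure D1:**
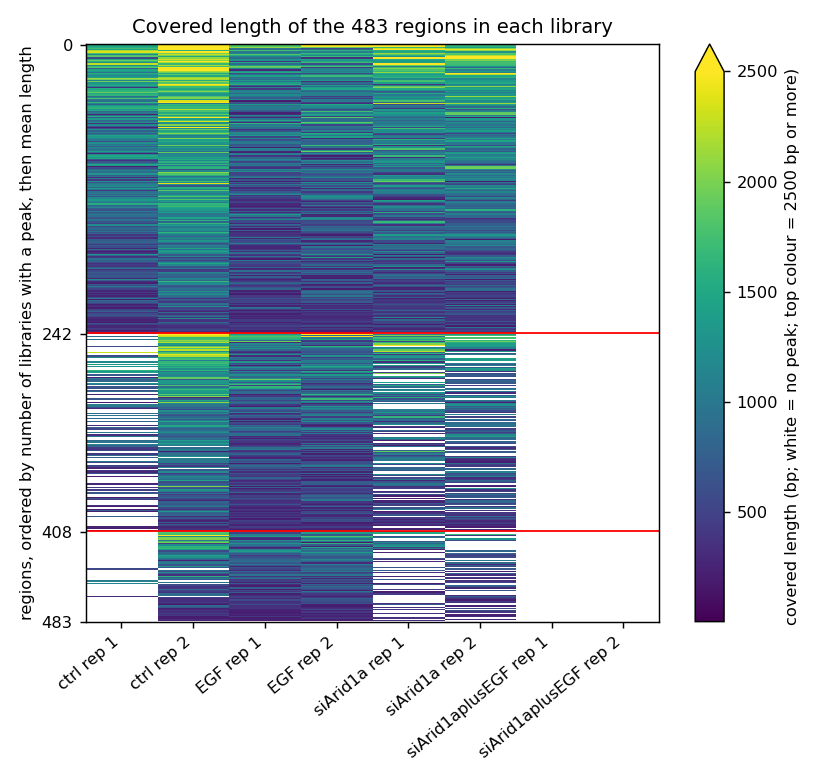
Covered length in bp (colour; white, no peak) of the 483 regions (rows) in the 8 libraries (columns). Red lines part the 242 regions held by 6 libraries from the 166 held by 5 and the 75 held by 4. EGF columns are darker (shorter peaks) than the ctrl replicate 2 column, and the 2 rightmost columns are empty by the choice of regions.

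The peaks were short and of low rank where they were present. Covered length, the number of bp of a region under a peak of a library, had a median of 586 bp in EGF replicate 1 and 698 bp in EGF replicate 2. It was 814.5 and 1148 bp in ctrl replicates 1 and 2, and 844 and 829 bp in siArid1a replicates 1 and 2, each over the regions with a peak there. In the 17537 regions that kept a peak in both siArid1aplusEGF libraries, the medians were 1397 and 1456 bp for the EGF libraries. By these medians the EGF peaks of the set were the shortest of the 3 groups, and shorter than those of regions that kept a peak. Low EGF medians were not particular to the set. Kept regions had 1447 and 1711 bp in the ctrl and 1724 and 1775 bp in the siArid1a libraries. The 829 regions with 1 siArid1aplusEGF peak had 684 and 721 bp in EGF libraries. Their ctrl medians were 746 and 1091 bp and their siArid1a medians 870.5 and 938 bp. With absent peaks as 0 bp, group means in the set had medians of 647.5 bp (EGF), 656.5 bp (siArid1a) and 814 bp (ctrl).

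Ranks followed the same order. The authors' score of each peak is 10 times its −log10 q-value, and its percentile was taken within its own list. Peaks of the set had a median percentile of 14.6 and 16.2 in EGF replicates 1 and 2, 20.0 and 31.4 in ctrl replicates 1 and 2, and 21.4 and 21.1 in siArid1a replicates 1 and 2. Kept regions stood at 59.5 and 60.9 in the EGF libraries. Of the 483 regions, 94 were above the median score of at least 1 list, 0 were above it in every list that held them, and 0 reached the upper quartile of any list. Above the median of both EGF lists there were 2, on chromosome 16 from 15958840 to 15959309 and on chromosome 9 from 70806619 to 70808814. The authors' fold enrichment over background had a median of 3.69 and 3.78 in the EGF libraries for the set, and of 5.00 and 5.32 for kept regions.

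**Figure D2:**
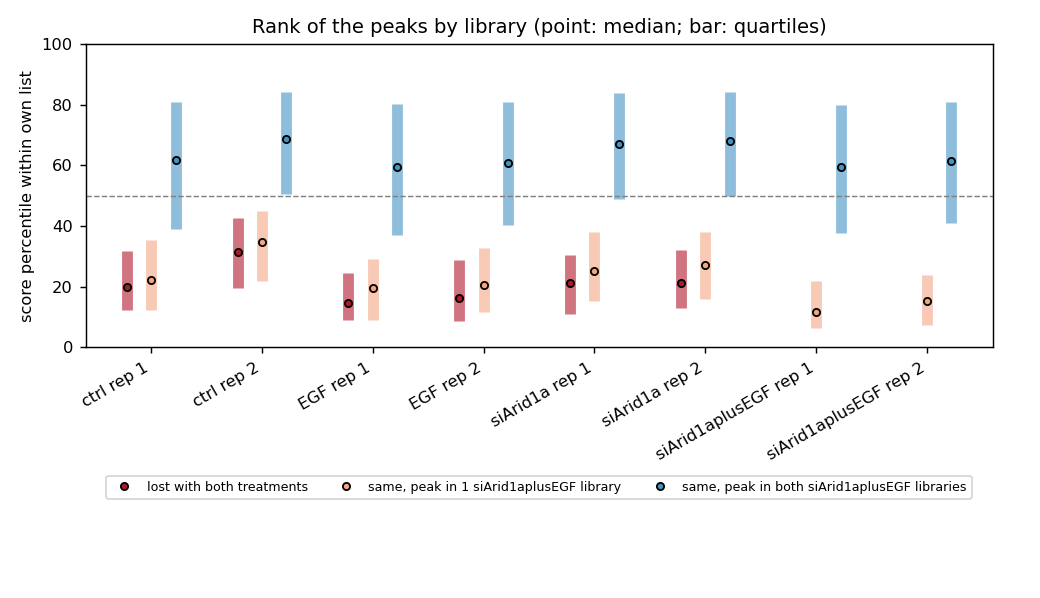
Percentile of the peak score within its own list (y axis, 0 to 100) by library (x axis), for the 483 regions without a peak after both treatments (dark red), the 829 with a peak in 1 siArid1aplusEGF library (light red) and the 17537 with a peak in both (blue). Points are medians and bars quartiles. Medians of the 483 regions lie between 14.6 and 31.4, all under the dashed median line of the lists, and close to those of the 829.

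The rule's border ran through peaks of low score. The 829 regions with a peak in 1 siArid1aplusEGF library had it in replicate 1 in 267 cases and in replicate 2 in 562. That single peak had a median −log10 q of 1.79 and a median length of 510 bp. Just outside the set lay a region on chromosome 2 from 152429235 to 152429799, with 475 bp under a peak of −log10 q 1.08 in siArid1aplusEGF replicate 1, against 297 and 461 bp in the EGF libraries. Another on chromosome 1 from 73015189 to 73017475 had 784 bp at −log10 q 1.18 in that replicate, against 385 and 692 bp in the EGF libraries. Just inside the set lay a region on chromosome 5 from 66491448 to 66492423, covered over 337 and 409 bp in the EGF libraries at a score percentile of 3.69 and 0.0542. On chromosome 11 from 77710214 to 77710695, 428 and 221 bp were covered in the EGF libraries, at percentiles of 0.0783 and 2.36. The last of these, on chromosome 6 from 8715122 to 8716485, had 449 and 974 bp there, at percentiles of 0.0783 and 26.9.

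Membership changed with the choice of peaks to count. When only peaks above the pooled median score were kept, 96 regions met the rule and 0 of them were among the 483. With lists of equal length 315 regions met it, 253 of them from the 483.

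The regions were of middling width and their peaks nested. Merged width had a median of 1367 bp and a range of 361 to 5321 bp, against a median of 1415 bp over all regions and 2155 bp for kept ones. At 3000 bp or more there were 15 (3.11%), against 28.5% of kept regions. The share was 3.86% of the 829 regions with 1 siArid1aplusEGF peak and 4.13% of the 484 missing from EGF cells instead. Peaks of EGF cells mostly sat inside those of control cells, a measure taken in the set only. A median of 99.2% of the sequence covered in either EGF library was also covered in a ctrl library, and in 233 regions it was all of it. The corresponding median for siArid1a cover was 88.2%. The 2 EGF libraries shared a median of 55.7% of the sequence that either covered, and in 9 regions their peaks did not touch. Under 300 bp were covered in 86 regions in EGF replicate 1, in 71 in EGF replicate 2 and in 26 in both.

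The 12 regions with the highest rank, taken as the lowest percentile over the libraries that hold a peak, ranged from 26.8 to 41.6 in that percentile and from 470 to 2490 bp in width. First was a region on chromosome 14 from 56932562 to 56933480. It was covered over 0 and 558 bp in ctrl replicates 1 and 2, 249 and 237 bp in the EGF libraries and 654 and 919 bp in the siArid1a libraries. Its siArid1a values were the highest, and its EGF peaks were near the shortest length of a deposited peak, 200 bp.

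The second, on chromosome 4 from 12665043 to 12667532, was long in all 3 groups. It had 1756 and 1961 bp in the ctrl libraries, 1097 and 1653 bp in the EGF libraries and 2133 and 1864 bp in the siArid1a libraries. Its difference on the scale of log2(covered bp + 200) was -2.95 ± 0.23 (SE) for siArid1aplusEGF against EGF and -3.46 ± 0.23 against siArid1a. The rule left both siArid1aplusEGF libraries at 0 bp, so they added no spread, which lowers the SEs given for regions of the set. EGF and ctrl values did not overlap, while siArid1a and ctrl values did.

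On chromosome 16 from 15958840 to 15959309 a short region had EGF peaks of 223 and 221 bp, at score percentiles of 68.3 and 63.1 of their lists. Its ctrl values were 0 and 470 bp and its siArid1a values 366 and 0 bp. Covered length overlapped between the 3 groups. On chromosome 13 from 100307533 to 100308597 the EGF libraries had 937 and 1043 bp, more than the ctrl libraries with 0 and 638 bp and the siArid1a libraries with 0 and 277 bp. Both EGF values lay above all 4 values of the vehicle groups, which overlapped each other.

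Other regions of high rank had EGF values below the ctrl values. On chromosome 4 from 103670427 to 103671404, the EGF libraries had 209 and 235 bp, the ctrl libraries 540 and 402 bp and the siArid1a libraries 770 and 766 bp. On chromosome 9 from 121674125 to 121675773, cover was 1553 and 1649 bp in ctrl, 293 and 526 bp in EGF and 371 and 886 bp in siArid1a libraries, so the EGF and siArid1a values each lay below both ctrl values and overlapped each other. A region on chromosome 15 from 85335492 to 85336638 had EGF and siArid1a values below both ctrl values, with 639 and 1002 bp in ctrl, 507 and 589 bp in EGF and 532 and 617 bp in siArid1a libraries. Of the 12, 6 had no peak in ctrl replicate 1, and 4 had under 300 bp in both EGF libraries.

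Among the widest regions, EGF alone went with shorter cover in some and not in others. The widest, on chromosome 13 from 57772434 to 57777754, had 2709 and 5321 bp in ctrl, 1163 and 1111 bp in EGF and 3544 and 3570 bp in siArid1a libraries. Its EGF values lay below all 4 values of the vehicle groups. On chromosome 14 from 39324292 to 39328044, by contrast, 1812 and 2502 bp were covered in EGF, 1464 and 3267 bp in ctrl and 3250 and 1653 bp in siArid1a libraries, and all 3 groups overlapped. This region was also remote, 1375209 bp from the nearest region held by all 8 libraries. On chromosome 17 from 43282194 to 43286144 the EGF libraries disagreed, at 682 and 2895 bp, beside 3951 and 3275 bp in ctrl and 2173 and 1942 bp in siArid1a libraries.

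**Figure D3:**
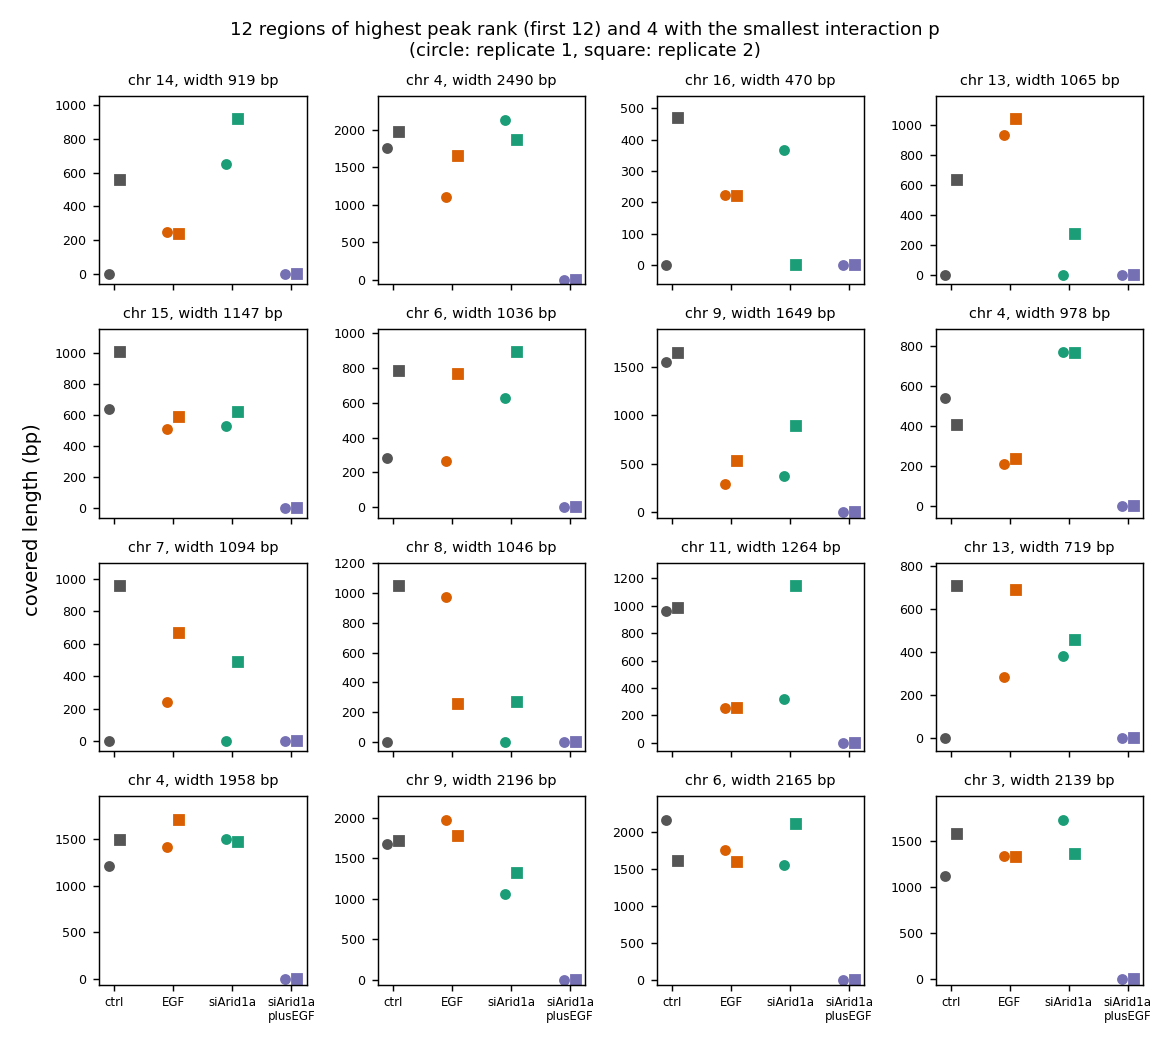
Covered length in bp (y axis) by group (x axis) in 16 regions, each named by chromosome and width; circles are replicate 1 and squares replicate 2. The first 12 panels are the regions of highest rank and the last 4 those of the smallest interaction p not already shown; in the last 4 the ctrl, EGF and siArid1a points all exceed 1000 bp.

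The linear model of limma was run on log2(covered bp + 200) in 28146 regions, those found in 2 or more libraries, the 483 among them. A region was called where its p, adjusted over all 28146 by the Benjamini-Hochberg method, was under 0.05. Against siArid1a cells, 164 were called lower in siArid1aplusEGF cells (34.0%), where 6% of all regions were called lower. The siArid1a lists were the longer ones, and with lists of equal length 83 were called, beside 4.75% of all regions. Against EGF cells, 56 were called lower (11.6%), where 0.426% of all regions were. Those 56 were all among the 164. Against ctrl cells 171 were called lower, beside 3.35% of all regions. The rule fixed these directions, so nothing is read from the shares. Calls came mainly from regions held by all 6 other libraries, which gave 161 of the 164 and 56 of the 56. The counts changed with single libraries. Against EGF cells limma called 115 and 131 without ctrl replicates 1 and 2 (0.954% and 1.25% of all regions), and 0 without any 1 library of the EGF, siArid1a or siArid1aplusEGF groups (230 to 344 at an unadjusted p under 0.05, beside 8.74% to 10.4% of all regions). Against siArid1a cells it called 273 and 276 without ctrl replicates 1 and 2 (12.7% and 13.8% of all regions), and 122 and 121 without EGF replicates 1 and 2 (2.94% and 2.86%). Nearly all of the 164 calls were lost without any 1 siArid1a or siArid1aplusEGF library. The median log2 difference was then -2.22 to -1.99 in the set, beside -0.35 to -0.27 over all regions.

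Loss with both treatments beyond either alone is measured by the interaction, the EGF difference in knockdown cells minus that in cells with non-targeting siRNA. Limma called 0 of the 28146 regions for it (0% of all regions, smallest adjusted p = 0.153). At an unadjusted p under 0.05 it was negative in 217 of the 483, beside 6.98% of all regions, a share the rule raises by its construction. The median interaction of the set was -1.88 on the log2 scale and that of all tested regions -0.16. Without ctrl replicate 2 limma called 127 of the 483 lower (26.3%), beside 4.1% of all regions.

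The 5 smallest interaction p-values in the set belonged to regions covered over more than 1000 bp in all ctrl, EGF and siArid1a libraries. The rule left both siArid1aplusEGF libraries at 0 bp, so that group added no spread, which lowers these SEs and p-values. On chromosome 4 from 83771551 to 83773508, cover was 1208 and 1490 bp in ctrl, 1415 and 1706 bp in EGF and 1497 and 1470 bp in siArid1a libraries, with an interaction of -3.26 ± 0.30 (SE). The 3 groups overlapped. On chromosome 6 from 14307521 to 14309685 the values were 2165 and 1608 bp in ctrl, 1756 and 1603 bp in EGF and 1559 and 2112 bp in siArid1a libraries, with an interaction of -3.20 ± 0.32. On chromosome 3 from 138334179 to 138336317 they were 1125 and 1578, 1338 and 1334, and 1732 and 1358 bp, with an interaction of -3.12 ± 0.35. There ctrl overlapped both other groups, while EGF lay just below siArid1a.

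Knockdown against control without EGF is also a description, because the rule used both groups and dropped regions with no ctrl or no siArid1a peak. Limma called 0 of the 483 regions (smallest adjusted p = 0.100), where 0.274% of all regions were called lower and 1.09% higher. At an unadjusted p under 0.05, 35 were lower and 6 higher, where 1.84% and 10.9% of all regions were. The median log2 difference was -0.15 in the set and 0.18 over all tested regions. Both siArid1a values lay below both ctrl values in 105 of the 483 (21.7%), beside 6.58% of all tested regions, and above them in 43 (8.90%), beside 33.5%. Sets with the same baseline rule had medians of 0.16 (the 17537 kept regions) and 0.04 (the 829 with 1 siArid1aplusEGF peak). In the 484 regions missing from EGF cells instead, chosen on the opposite pattern, the median was 0.74. After quantile normalization the medians of the set and of all regions were -0.50 and -0.03. Nothing is read from these differences, since the choice of regions used the values.

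The values moved with the control library. Without ctrl replicate 2, the longest list, the median was 0.30 in the set and 0.34 over all regions. Limma then called 57 of the 483 higher and 1 lower, 12% of the set beside 11.1% of all regions. Without ctrl replicate 1 the medians were -0.61 and 0.01, and limma called no region of the set or of all. At an unadjusted p under 0.05 there were 77 of the set (15.9%), beside 11.8% of all regions. The sign of the knockdown difference in these regions thus turned with the control library used.

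**Figure D4:**
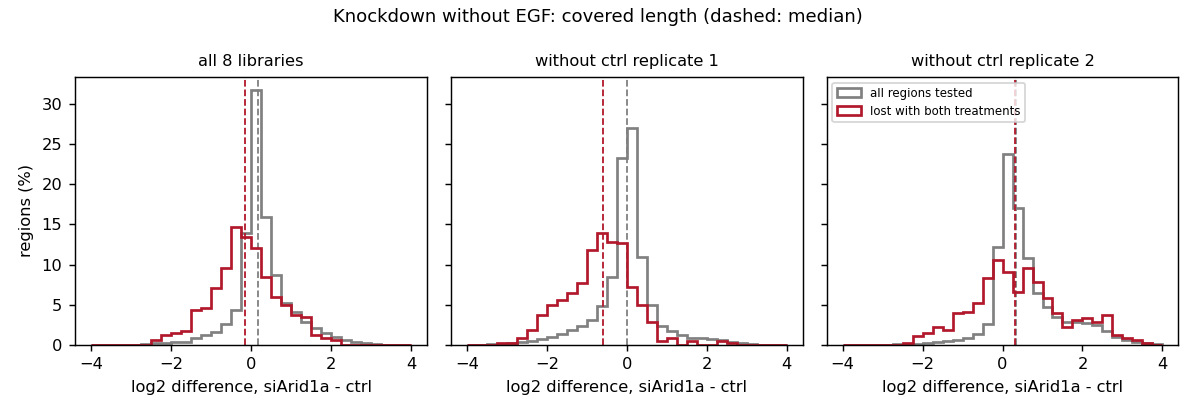
Share of regions in % (y axis) by log2 difference in covered length, siArid1a minus ctrl (x axis, limma, scale of log2(covered bp + 200)), for the 483 regions (red) and all tested regions (grey); dashed lines are medians. The red median is -0.15 with all 8 libraries, -0.61 without ctrl replicate 1 and 0.30 without ctrl replicate 2.

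The EGF difference without knockdown is also a description, because the rule asked for a peak in both EGF libraries and at least 1 ctrl library. Nothing is read from how its values stand beside those of all regions. Mean covered length was lower in EGF than in ctrl cells in 311 regions (64.4%) and higher in 172, and it was lower in 64.7% of all tested regions. On the log2 scale 249 of the set were below 0 and 234 above, with a median of -0.04, beside -0.14 over all regions. Both EGF values lay below both ctrl values in 132 (27.3%), beside 29.1% of all regions, and above them in 51 (10.6%), beside 12.4%. Limma called 2 lower and 0 higher, where 2.9% and 1.05% of all regions were. These were the widest region, on chromosome 13 from 57772434, with a difference of -1.58 ± 0.29 (SE), and one on chromosome 15 from 88031478 to 88034917. The latter had 2362 and 3440 bp in ctrl, 981 and 1090 bp in EGF and 1499 and 1285 bp in siArid1a libraries, a difference of -1.31 ± 0.24. Its vehicle knockdown values also lay below both control values. The 2 comparisons share the ctrl libraries.

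Position was not used by the rule. The 483 regions lay on chromosomes 1 to 19 and X, and made up 2.64% of the regions of chromosome 13 (35 of 1328), 2.33% of chromosome 18 (23 of 987) and 2.22% of chromosome 12 (29 of 1305), beside 1.42% of all regions. The lowest shares were 0.873% on chromosome X, 0.912% on chromosome 7 and 0.916% on chromosome 8. These shares were not tested.

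The regions lay apart from constant peaks. The nearest region with a peak in all 8 libraries was a median of 33270 bp away, against 17344 bp for kept regions and 14940.5 bp for the 484 regions missing from EGF cells instead. It was over 50000 bp away for 194 of the 483 (40.2%), against 24.1% of kept regions, 18.8% of the 484 and 25.5% of all regions. The 829 regions with 1 siArid1aplusEGF peak stood between, at 24060 bp and 33.7%. Distances were not tested, since regions are not replicates.

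Distance to the nearest siArid1aplusEGF peak is given for the set only, so it has no comparison. The nearest peak of either siArid1aplusEGF library was a median of 24234 bp away, and within 1000 bp in 4 regions. These began at 186502290 on chromosome 1, 25958986 on chromosome 12, 126777421 on chromosome 2 and 63841022 on chromosome 3. Of the 483 regions, 32 lay within 50000 bp of another member, as 16 pairs, with no matching count for other regions. The tightest pair spanned 5.23 kb on chromosome 1 from 109242846 to 109248071. A pair on chromosome 6 from 41221520 to 41240160 spanned 18.6 kb with no other region between.

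Neighbouring peaks, which the rule did not choose, allowed a comparison across libraries. The nearest regions held by all 8 libraries, 458 distinct ones, had a median cover of 1522.5 and 1564 bp in the EGF libraries and of 1359.5 and 1504.5 bp in the siArid1aplusEGF libraries. Group means were 1543.25 ± 29.3 and 1432 ± 103 bp (SD, n = 2 each), a difference of -111.25 bp (two-sided exact permutation p = 0.333, the smallest that 2 against 2 allow). The groups did not overlap, but a design of this size cannot pass the threshold. In ctrl libraries the medians were 1478.5 and 1928.5 bp, and in siArid1a libraries 1740 and 1813.5 bp.

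Over all 16607 regions held by 8 libraries the EGF mean was 1468.5 ± 40.3 and the siArid1aplusEGF mean 1490 ± 59.4 bp (SD, n = 2 each), a difference of 21.5 bp (exact permutation p = 0.667). At the 778 nearest such regions of the 829 with 1 siArid1aplusEGF peak, the difference was -88 bp (exact permutation p = 0.667, n = 2 each), so lower medians were not particular to the neighbours of the set. Without siArid1aplusEGF replicate 1 the difference at the neighbours shrank from -111.25 to -38.75 bp, and without replicate 2 it grew to -183.75 bp. Limma called 0 of the 458 neighbours for siArid1aplusEGF against EGF beside 0.253% of the regions held by all libraries. At an unadjusted p under 0.05 there were 46 (10.0%), beside 9.12% of those regions. The sequence within 50000 bp on each side of the 483 regions, without the regions themselves, was covered over a mean of 2.51 and 2.64 kb in EGF and 2.24 and 2.46 kb in siArid1aplusEGF libraries. For kept regions these means were 4.43 and 4.58, and 4.70 and 5.01 kb. Around the set the siArid1aplusEGF libraries thus had less cover than the EGF libraries, and around kept regions more. Around the 829 the means interleaved, at 3.54 and 3.71 kb in EGF and 3.44 and 3.72 kb in siArid1aplusEGF libraries. Medians around the 829 were lower in siArid1aplusEGF libraries, at 1.77 and 1.91 kb against 1.95 and 2.1 kb in EGF libraries. These contrasts were not tested, so lower cover is not shown to be particular to the set. Flanks of 32 members may hold another member, which the rule left without siArid1aplusEGF cover.

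**Figure D5:**
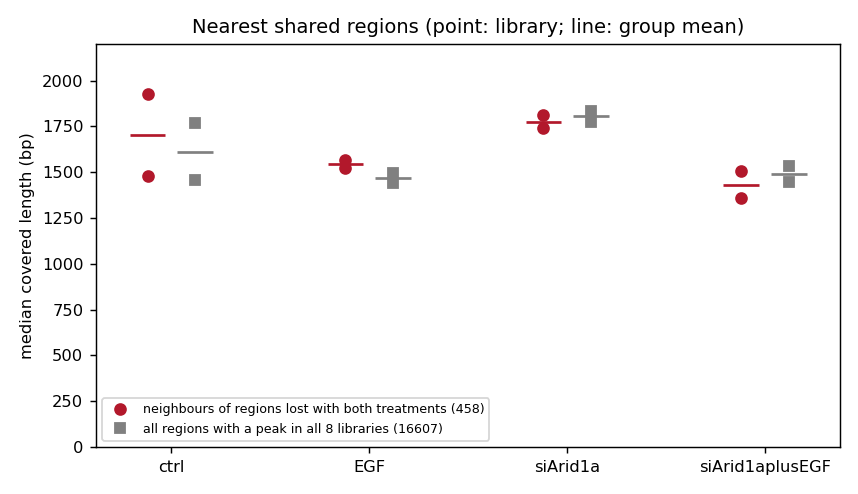
Median covered length in bp (y axis) of the nearest regions held by all 8 libraries (red circles, 458 regions) and of all 16607 such regions (grey squares), by group (x axis); points are libraries and lines group means. Red points of siArid1aplusEGF, at 1359.5 and 1504.5 bp, lie below those of EGF, at 1522.5 and 1564 bp, while the grey points of these groups interleave.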

How the data were processed

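H3K27ac ChIP-seq peak lists of 8 libraries, 2 for each of 4 groups, were analysed. Tools named, per the submitters' processing notes, were MACS2 (2.1.1.20160309.0), deepTools (3.0.2), SAMtools and Bowtie2 (2.3.4.2), and the build was mm9; their roles, the caller settings and any input library are not stated there. Each deposited list has 9 columns with the authors' score (10 times the −log10 q, as a whole number), the authors' fold enrichment (a ratio over background), and p- and q-values, deposited as −log10. Scores and fold enrichments were used only within a list, except for the alternative with a pooled median score of 40. Longer lists may reflect depth, which is unknown.

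Peaks sharing at least 1 bp were merged to regions, and covered bp per region and library were summed. Limma 3.58.1 (empirical Bayes with a trend, R 4.3.3) was fitted to log2(covered bp + 200), with 1 coefficient per group, in regions found in 2 or more libraries; fold differences of short peaks are understated on this scale. Other steps used Python 3.11.15, pandas 2.3.3 and NumPy 2.4.6. Steps were tested on simulated data. Named regions are the 12 of highest lowest-percentile, the 5 widest, the 5 of smallest interaction p and 3 on each side of the rule's border; the text gives part of them. The 2 regions above the median of both EGF lists, the region called with EGF on chromosome 15, the 4 near a siArid1aplusEGF peak and the 2 pairs were named after their values were seen. The regions, the comparison sets and the tests were chosen with earlier results of these data known. Gene lists and markers that needed a gene annotation of build mm9 were not analysed here, so no region is tied to a gene or sequence.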

Additional observations from a re-analysis of the deposited data

Results flagged for a closer look

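On chromosome 9 from 70806619 to 70808814, both EGF libraries had more cover than both ctrl libraries, and both siArid1aplusEGF libraries less than both siArid1a libraries. The EGF differences thus had opposite signs, but the rule fixed the second. The first was 0.13 ± 0.20 (SE) on the log2 scale, with a limma adjusted p of 0.774, so it could not be told from no difference. Covered length was 1679 and 1714 bp in ctrl, 1970 and 1772 bp in EGF, 1062 and 1323 bp in siArid1a and 0 bp in both siArid1aplusEGF libraries. The interaction was -2.92 ± 0.28 (SE) on the log2 scale, with a limma adjusted p of 0.153, so the difference between the EGF effects did not pass the threshold. Without ctrl replicate 2 it was -2.93 with an adjusted p of 0.0426, past the threshold, and over the other alternatives the adjusted p ranged from 0.0741 to 0.787. The rule that chose the region used these libraries. Both EGF values exceeded both ctrl values in 51 of the 483 regions (10.6%), beside 12.4% of all tested regions, and lay below them in 132. Of the 51, 18 had a peak in both siArid1a libraries.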

How the results depend on the processing

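The set depends on weak peaks and on single libraries. Only peaks above the pooled median score gave 96 regions, none of the 483, and lists of equal length 315, while merging over 1000 bp gave 477 (470 shared) and a required cover of 50% gave 560 (93 shared). Leaving out 1 ctrl or siArid1a library, which can only narrow the rule, gave 324 to 476 regions. Leaving out 1 EGF or siArid1aplusEGF library can only widen it, and gave 747 to 1045 with all 483 kept. Calls lower against EGF cells, 56 in the report, were 1 with peaks above the pooled median (15 of the 483 testable), 85 with equal lists, 124 and 0 with pseudocounts of 50 and 1000 bp (278 at an unadjusted p under 0.05 with the latter) and 0 to 131 without 1 library. Calls lower against siArid1a cells, 164 in the report, were 0 with peaks above the pooled median, 83 with equal lists, 81 after quantile normalization and 0 to 276 without 1 library. Interaction calls were 1 lower with peaks above the pooled median (4 others were higher), and 0 to 127 without 1 library. Calls for siArid1a against ctrl were 5 of 15 with peaks above the pooled median (4.65% of all regions), 35 with equal lists (31 lower; 7.37%, beside 2.55% of all regions) and 0 to 58 without 1 library (12% at most, beside 11.1%). Quantile normalization moved the median of all regions from 0.18 to -0.03 there and that of the set from -0.15 to -0.50. The neighbour difference was -107.25 bp within 20000 bp, -108.5 bp with equal lists and -183.75 to -38.75 bp without 1 library. Over all tested regions, the share called lower moved too. Against EGF cells it was 0.851% with peaks above the pooled median and 1.02% with equal lists. It was 0.998% and 0% with pseudocounts of 50 and 1000 bp. Against siArid1a cells it was 6.83% with peaks above the pooled median, 4.75% with equal lists and 1.85% after quantile normalization. For the interaction it was 3.7% with peaks above the pooled median. The cause of these moves was not tested.

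With the replicate number as a block, calls lower against EGF cells fell from 56 to 0 (339 at an unadjusted p under 0.05) and those against siArid1a cells from 164 to 126, with 0 for the interaction and for siArid1a against ctrl. With this block, the shares of all tested regions called lower were 0% against EGF cells and 3.84% against siArid1a cells. Differences between replicate 2 and 1 correlated at -0.01 to 0.03 between groups over 28146 regions. The labels do not say whether libraries of the same number share a culture or batch, and these correlations cannot decide it. Log2 differences of the 24 named regions against EGF cells stayed below 0 in 362 of 364 values over the alternatives. Against siArid1a cells 352 of 364 were below 0, and for the interaction 356 of 364. The rule left siArid1aplusEGF at 0 bp in all 24. Only named regions called in the report could lose a call. All 7 of them against EGF cells and all 11 against siArid1a cells did so in at least 1 alternative. Read depth is unknown, so weak peaks cannot be weighed by it.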
